A study of Mus musculus with 8 samples.

Results

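The translation initiation and elongation factors described here are the 67 gene symbols, of 21049 with deposited liver expression values, that begin with Eif or Eef followed by a digit. They hold the subunits of each initiation and elongation factor together with their kinases, binding proteins and modifying enzymes. RNA was sequenced from 4 alcohol-fed and 4 saline control samples of wild-type C57BL/6 mice, an inbred laboratory strain, to ask what alcohol changes in the liver. The labels give liver tissue for every sample and also name hepatocytes and AML12, a mouse hepatocyte line. Whether the samples are separate animals is not stated in the labels, so each p-value covers the spread among these samples and no more. The values are FPKM, read fragments scaled by the gene's length and the library's size. Levels of different genes can be set side by side per length only as far as the lengths used hold. For some members the length recovered from the values was far from the annotated exon bases (Eif2s3y, 9129 bases against 4161). Of the 67 members, 61 reached the expression minimum, an average of 1 FPKM across the 8 samples, and were tested, and 6 (Eef1a2, Eef1akmt3, Eef2k, Eif2ak4, Eif4e3 and Eif5a2) did not.

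Translation starts when eIF2 carries the initiator methionyl-tRNA to the small ribosomal subunit, where eIF1, eIF1A, eIF3 and eIF5 gather, while eIF4F (the cap-binding eIF4E, the scaffold eIF4G and the helicase eIF4A) recruits the mRNA. Initiation is held back at 2 known points: kinases phosphorylate eIF2 alpha, which then blocks its own exchange factor eIF2B, and the 4E-BP proteins occupy eIF4E until mTORC1 phosphorylates them. In elongation eEF1A delivers aminoacyl-tRNA, the eEF1B subunits recharge eEF1A with GTP, and eEF2 moves the ribosome along. The liver, which secretes most plasma proteins, depends on this machinery, and nutrients and stress set its rate largely after transcription, so the transcripts measured here do not give the rate of translation.

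The library totals recovered from the FPKM values were 37132631 to 38407511 reads in the alcohol samples and 33872595 to 34789814 reads in the control samples. Alcohol replicates 2 and 4 were more alike than any other pair (Spearman rho 0.995, against 0.968 to 0.985 for the other pairs within a group), though their recovered reads differed by more than sampling noise (chi-square of 10.1 per gene, where noise alone gives about 1), and control replicate 1 stood apart from the other controls (rho 0.972 to 0.978 with them, against 0.983 to 0.985 among them). The 6 hepatocyte markers summed to 49815 to 58967 FPKM in alcohol samples and 53833 to 61612 FPKM in controls, with 1 higher and 2 lower by the test. All 5 endothelial markers rose (Stab2 did not pass with quantile normalization), and their sum was 51.5 to 60.5 FPKM in alcohol samples against 10.9 to 17.3 FPKM in controls. Of the 4 stellate cell markers tested 3 rose, and the sum over all 5 listed was 96.9 to 136 FPKM in alcohol samples against 35.2 to 65.6 FPKM in controls. Of the 4 Kupffer cell and macrophage markers tested, Cd68 fell (not passed on the TPM scale), and the sum over all 6 listed was 22.5 to 42.0 FPKM in alcohol samples and 18.2 to 67.6 FPKM in controls. Of the 5 red blood cell markers Alas2 fell, the 1 bile duct marker tested did not pass, and the 5 lymphocyte markers were all under the minimum. Xist, the transcript of the inactive X chromosome, was at 0 to 0.00601 FPKM in alcohol samples and at 0 in controls, and the Y-linked Ddx3y averaged 10.5 ± 3.17 FPKM in alcohol samples and 5.33 ± 1.53 FPKM in controls (SD, n = 4 each). Of the 4 Y-linked genes tested, Ddx3y and Uty rose on FPKM, while Kdm5d and Eif2s3y did not pass. Uty did not pass with quantile normalization. The part of these cell types in the changes of the factors was not tested, and in bulk tissue fewer cells of a type and less RNA per cell cannot be told apart.

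On the FPKM values as deposited, most of the factor genes were higher with alcohol. By limma on log2(FPKM + 1), with Benjamini-Hochberg adjustment over 9228 genes at 0.05, 41 of the 61 tested members (67.2%) rose, 5 (8.20%) fell and 15 did not pass. Of all tested genes 44.2% rose and 13.0% fell. Every alcohol sample lay above every control sample for 38 members (62.3%), against 39.5% of all tested genes, and below for 2 (3.28%), Eif2a and Eif2b1, against 10.7% of all tested genes. The median log2 change (alcohol minus control) was 0.40 over the members and 0.24 over all tested genes. Reads of the 67 members made up 1.32% to 1.46% of each alcohol library and 0.892% to 1.16% of each control library.

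How many factor genes rose depended on how the libraries were scaled to each other. With median-of-ratios scaling, which puts the typical expressed gene at the same level in every library, 15 members (24.6%) were higher, against 23.5% of all tested genes, and 11 of the 61 lower, against 28.3%, so the share of members called higher was near that of all genes. The median was then 0.07 over the members and -0.03 over all tested genes. With quantile normalization 30 (49.2%) were higher and 8 (13.1%) lower, against 24.1% and 25.0% of all tested genes, with medians of 0.26 and -0.01. On the TPM scale, where each library sums to the same total, 49 (80.3%) were higher and 2 (3.28%) lower, against 52.7% and 8.82% of all tested genes, with medians of 0.55 and 0.40. The members' median thus lay above that of all genes under each of the 4 scalings, by differing amounts. Under all 4 scalings 13 members (21.3%) were called higher and 2 (3.28%) lower, against 20.3% and 8.73% of all tested genes. The 13 were Eif1a, Eif2s3x, Eif3a, Eif3c, Eif3j1, Eif4ebp2, Eif4enif1, Eif4g2, Eif4g3, Eif5, Eif6, Eef1e1 and Eef1akmt1, and the 2 were Eif2b1 and Eif4ebp3. For those 15 genes the call was the same under each scaling. Of the 46 members called on FPKM, 26 did not pass with median-of-ratios scaling, 12 with quantile normalization and 3 on the TPM scale. The direction given below for any other member is that of the FPKM values as deposited. Counts of risers given below for each factor group are to be read beside the shares of all tested genes.

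**Figure D1:**
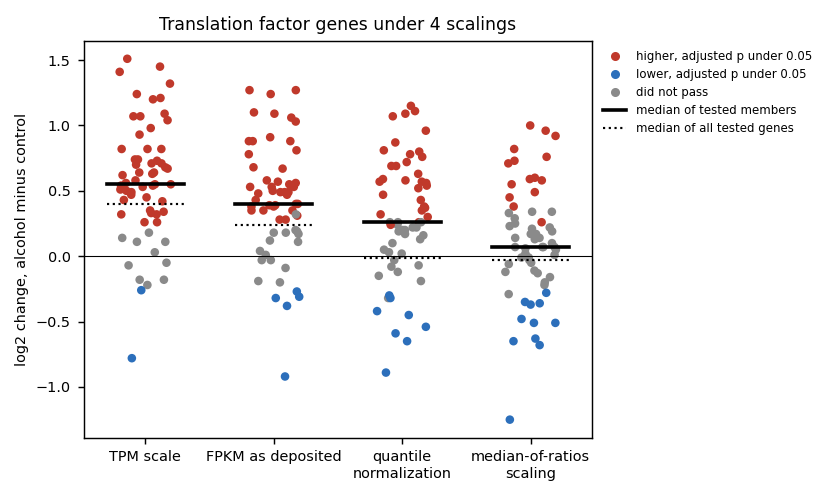
Log2 change (alcohol minus control) of each of the 61 tested translation factor genes under 4 scalings; points are genes, coloured by whether they were higher, lower or did not pass at a limma adjusted p of 0.05, thick lines are the members' medians and dotted lines the medians of all 9228 tested genes. The members' median goes down in the order 0.55, 0.40, 0.26 and 0.07, and stays above that of all tested genes in each column.

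**Figure D2:**
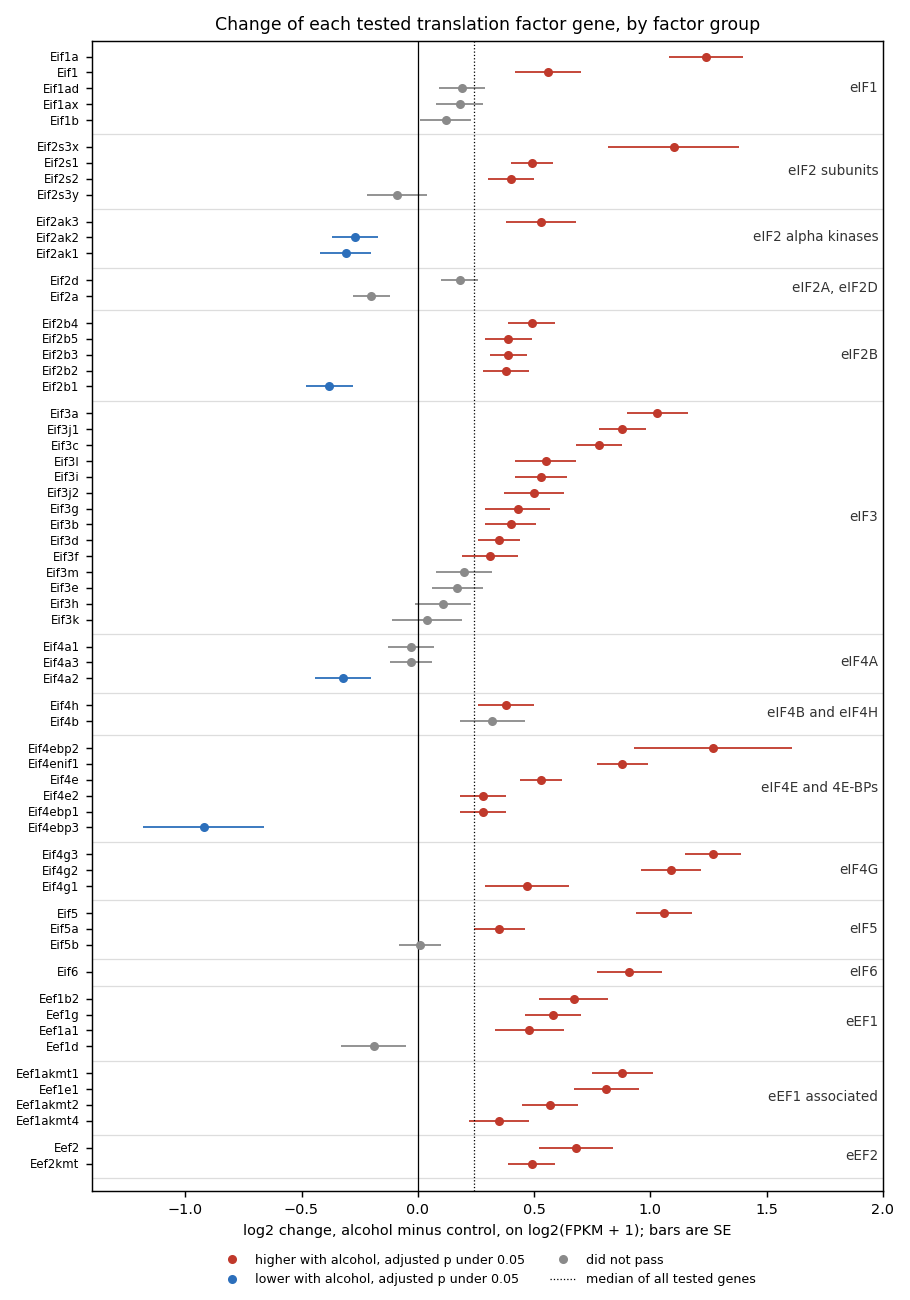
Log2 change (alcohol minus control) of the 61 tested members on log2(FPKM + 1), grouped by factor, with bars of 1 standard error and colours for the limma call (4 alcohol and 4 control samples); the dotted line is the median of all tested genes, 0.24. The eIF4G, eIF6 and eEF1-associated genes sit to the right of that line, while the eIF4A genes and 2 of the eIF2 alpha kinases sit left of 0, except that the eIF4A median was 0.11 on the TPM scale.

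Promoter sequences from RefSeq (GRCm38.p6, from 250 bases before to 50 bases after each gene's start) were at hand for 52 of the 67 members. They are shown as a description of the letters. Of the patterns searched, 2 are textbook sites of stress factors of the ATF family. Whether such factors act on these genes was not tested. Both strands were searched for TGACGTCA, the ATF/CREB palindrome, for TGATGNAA, the composite site of C/EBP and ATF proteins, and for CCGGAAGT, an ETS family pattern chosen after the sequences had been seen; the patterns do not overlap in the stretches printed. The lines below run 5′ to 3′ on the gene's own strand, with the match in capitals.
Eef2: ggccgggcgtTGACGTCAgcggtctctt
Eif2s3x: tcgccatcatTTTCATCAggtctatgcc
Eif2b2: ctctctcggcCCGGAAGTgaaacagtgc
Eif2b4: ccagtgcacgCCGGAAGTtgtagtccgc
Eif3l: gctgggcgggACTTCCGGtccggccaag
Eif2ak1: ctcttgtgttACTTCCGGcttgggggga

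These stretches lie at chr10:81176623-81176650 on the plus strand for Eef2, chrX:94212730-94212757 on the minus strand for Eif2s3x, chr12:85219487-85219514 on the plus strand for Eif2b2, chr5:31193121-31193148 on the minus strand for Eif2b4, chr15:79075177-79075204 on the plus strand for Eif3l and chr5:143817797-143817824 on the plus strand for Eif2ak1. TGACGTCA was in the promoter of 1 of 52 members (1.92%), Eef2, against 2.03% of the 27025 genes with a promoter. Among tested genes it was in 1 of 48 members (2.08%), against 3.74% of the 7404 with a promoter. TGATGNAA was in 2 members (3.85%), Eif2s3x and the untested Eef2k, against 4.51% of all promoters. Among tested genes it was in 1 of 48 members (2.08%), against 2.66%. CCGGAAGT was in 9 members (17.3%), against 4.31% of all promoters; among tested genes it was in 8 of 48 members (16.7%) against 10.3% of the 7404 with a promoter. Of those 8 tested members, 7 (Eef1b2, Eif2b2, Eif2b4, Eif3d, Eif3l, Eif4e2 and Eif5a) were called higher on FPKM, or 87.5%, against 67.2% of all tested members and 44.2% of all tested genes, and Eif2ak1 was called lower. None of the 7 passed with median-of-ratios scaling and 4 did with quantile normalization, while Eif2ak1 did not pass on the TPM scale; since the pattern was chosen after the sequences had been seen, nothing is read from these counts. A match is a description of the letters and not a binding site shown here.

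Among the 5 genes of the eIF1 group, Eif1a and Eif1 rose, and Eif1ad, Eif1ax and Eif1b did not pass. The group's median was 0.19 on FPKM, 0.34 on the TPM scale, and below 0 with median-of-ratios scaling (-0.11) and quantile normalization (-0.07). Eif1a, a gene for eIF1A, which helps the scanning ribosome hold the initiator tRNA, had 41.4, 29.7, 32.0 and 31.6 FPKM in alcohol replicates 1 to 4, against 17.8, 10.8, 11.5 and 15.5 FPKM in control replicates 1 to 4. No alcohol sample was as low as any control, and the log2 change was 1.24 ± 0.16 (SE; limma adjusted p = 0.000146). Eif1, the gatekeeper of start codon choice, had 441, 572, 405 and 551 FPKM in alcohol samples, against 297, 362, 321 and 341 FPKM in controls. Its groups did not overlap, with alcohol replicates 2 and 4 the highest, and it changed by 0.56 ± 0.14 (limma adjusted p = 0.00610), or 0.23 and not passed with median-of-ratios scaling. Of its transcript, 31.6% of the 50-base words also occur in other genes, so its reads are uncertain. The X-linked eIF1A gene Eif1ax averaged 7.47 ± 0.806 FPKM with alcohol and 6.49 ± 0.601 FPKM in controls (SD, n = 4 each). Per length both means were under those of Eif1a, 33.7 FPKM with alcohol and 13.9 FPKM in controls. Eif1b, a close relative of Eif1, averaged 21.1 ± 1.39 FPKM with alcohol and 19.5 ± 2.38 FPKM in controls, and Eif1ad averaged 9.24 ± 0.646 FPKM with alcohol and 7.97 ± 0.710 FPKM in controls.

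Of the 4 eIF2 subunit genes 3 rose and the Y-linked Eif2s3y did not pass, and their summed level was 55.8 to 66.5 FPKM in alcohol samples against 40.5 to 48.6 FPKM in controls. Eif2s1 encodes the alpha subunit, whose serine is the target of the kinases. It had 18.5, 18.5, 16.7 and 19.4 FPKM in alcohol samples, against 13.2, 13.4, 12.2 and 12.1 FPKM in controls. The lowest alcohol sample was above the highest control, and the log2 change was 0.49 ± 0.09 (limma adjusted p = 0.00106), or 0.17 and not passed with median-of-ratios scaling. Eif2s2, the beta subunit, had 32.4, 30.4, 25.3 and 32.4 FPKM in alcohol samples, against 23.3, 21.8, 22.1 and 22.9 FPKM in controls. Its groups did not overlap either, and it changed by 0.40 ± 0.10 (limma adjusted p = 0.00733). The call was lost with median-of-ratios scaling (0.07; adjusted p = 0.573 by limma) and quantile normalization (0.26; 0.0540), and 27.8% of its 50-base words are shared with Gm9892.

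The gamma subunit, which holds the GTP and the tRNA, is encoded in the mouse by an X-linked and a Y-linked gene, and they behaved unlike each other. Eif2s3x (chrX:94188707-94212862, minus strand, GRCm38) had 11.4, 7.64, 10.7 and 6.94 FPKM in alcohol samples, against 7.77, 2.70, 3.45 and 2.28 FPKM in controls. Control replicate 1 lay among the alcohol samples, while the other controls were below them all. The log2 change was 1.10 ± 0.28 (limma adjusted p = 0.00627) and 1.40 without control replicate 1, and 36.2% of its 50-base words occur in transcripts of other genes. Eif2s3y (chrY:1010543-1028847, plus strand) had 4.28, 2.95, 3.10 and 3.72 FPKM in alcohol samples, against 4.31, 4.58, 3.22 and 3.17 FPKM in controls. These groups overlapped fully (log2 change -0.09 ± 0.13, limma adjusted p = 0.576), though quantile normalization (-0.42) and median-of-ratios scaling (-0.35) called it lower. The FPKM ratio of Eif2s3x to Eif2s3y within a library was 1.87 to 3.45 in alcohol samples and 0.590 to 1.80 in controls. A single factor per library does not alter this ratio, though quantile normalization can. The highest ratio among controls was again that of replicate 1. The level of the ratio depends on the lengths used. Those recovered from the FPKM values were 3587 bases for Eif2s3x and 9129 for Eif2s3y, against 3812 and 4161 annotated exon bases. Which gene of the pair is the more abundant is therefore uncertain, while the difference in ratio between the groups does not depend on length.

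The kinases of eIF2 alpha did not move as 1 group: PERK rose, HRI and PKR fell, and GCN2 was under the expression minimum. Eif2ak3 encodes PERK, the sensor of unfolded protein in the endoplasmic reticulum. It had 3.55, 2.77, 3.13 and 2.94 FPKM in alcohol samples, against 2.67, 1.61, 1.18 and 2.09 FPKM in controls. The groups came close, control replicate 1 being the highest control, but did not overlap, and the log2 change was 0.53 ± 0.15 (limma adjusted p = 0.0119). Under median-of-ratios scaling (0.29) and quantile normalization (0.20) it did not pass. Eif2ak1, the haem-regulated kinase HRI, had 11.6, 12.3, 14.6 and 13.0 FPKM in alcohol samples, against 17.8, 14.5, 17.7 and 14.9 FPKM in controls. The groups just overlapped, alcohol replicate 3 reaching the lowest control, and the change was -0.31 ± 0.11 (limma adjusted p = 0.0290). HRI did not pass without any 1 of alcohol replicates 1, 2 and 4 or control replicates 1 and 3, with adjusted p over the 8 omissions of 0.0208 to 0.0860, nor on the TPM scale (-0.18).

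Eif2ak2, the double-stranded RNA kinase PKR, had 1.75, 1.34, 1.46 and 1.26 FPKM in alcohol samples, against 2.23, 2.13, 1.79 and 1.71 FPKM in controls. Alcohol replicate 1 lay above the lowest control, and the change was -0.27 ± 0.10 (limma adjusted p = 0.0390). That call was lost without any 1 of 6 samples (alcohol replicates 2, 3 and 4 and control replicates 1, 2 and 3; adjusted p 0.0193 to 0.108 over the 8 omissions) and on the TPM scale. Eif2ak4, the amino acid sensor GCN2, had 0.882, 0.654, 0.949 and 0.900 FPKM in alcohol samples and 0.966, 0.827, 0.969 and 0.681 FPKM in controls. Both groups spanned nearly the same range (exact 2-sided permutation p = 0.857). Per length, HRI was the most abundant of the 4 kinases in both groups, at 12.9 ± 1.26 FPKM with alcohol and 16.2 ± 1.74 FPKM in controls (SD, n = 4 each).

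eIF2B, the exchange factor that recharges eIF2 with GTP, has 5 subunits, and 4 of their genes rose while the gene of the alpha subunit, Eif2b1, fell. Eif2b5 encodes the catalytic epsilon subunit (chr16:20498817-20509323, plus strand). It had 15.3, 16.7, 17.0 and 15.7 FPKM in alcohol samples, against 14.1, 11.5, 11.7 and 11.2 FPKM in controls. Control replicate 1 was the nearest to the alcohol samples but below all of them, and the change was 0.39 ± 0.10 (limma adjusted p = 0.00676). Eif2b4, the delta subunit, had 15.8, 16.3, 13.0 and 13.8 FPKM in alcohol samples, against 11.1, 9.40, 10.4 and 9.92 FPKM in controls. It too had no overlap, with a change of 0.49 ± 0.10 (limma adjusted p = 0.00235). The beta and gamma genes, Eif2b2 and Eif2b3, changed by 0.38 and 0.39 with no overlap of their groups. None of these 4 genes passed under median-of-ratios scaling (0.07 to 0.17) or quantile normalization (0.05 to 0.24), although all 4 stayed above 0.

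Eif2b1 (chr5:124570213-124579131, minus strand) lies outside the rule for named genes and was chosen after its values were seen. The alpha subunit it encodes joins the regulatory part that binds phosphorylated eIF2. It had 7.22, 8.08, 8.35 and 8.04 FPKM in alcohol samples, against 9.17, 11.0, 10.4 and 12.0 FPKM in controls. Every alcohol sample was below every control, and the change was -0.38 ± 0.10 (limma adjusted p = 0.00875), with -0.68 to -0.26 over the 16 alternatives tried and adjusted p of 0.000816 to 0.0498 over them. Within a library the ratio of Eif2b1 to Eif2b5 was 0.472, 0.484, 0.492 and 0.513 in alcohol samples, against 0.648, 0.959, 0.886 and 1.07 in controls. The alcohol ratios lay close together and under every control ratio. A single factor per library does not enter a ratio of this kind, though quantile normalization can alter it.

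**Figure D3:**
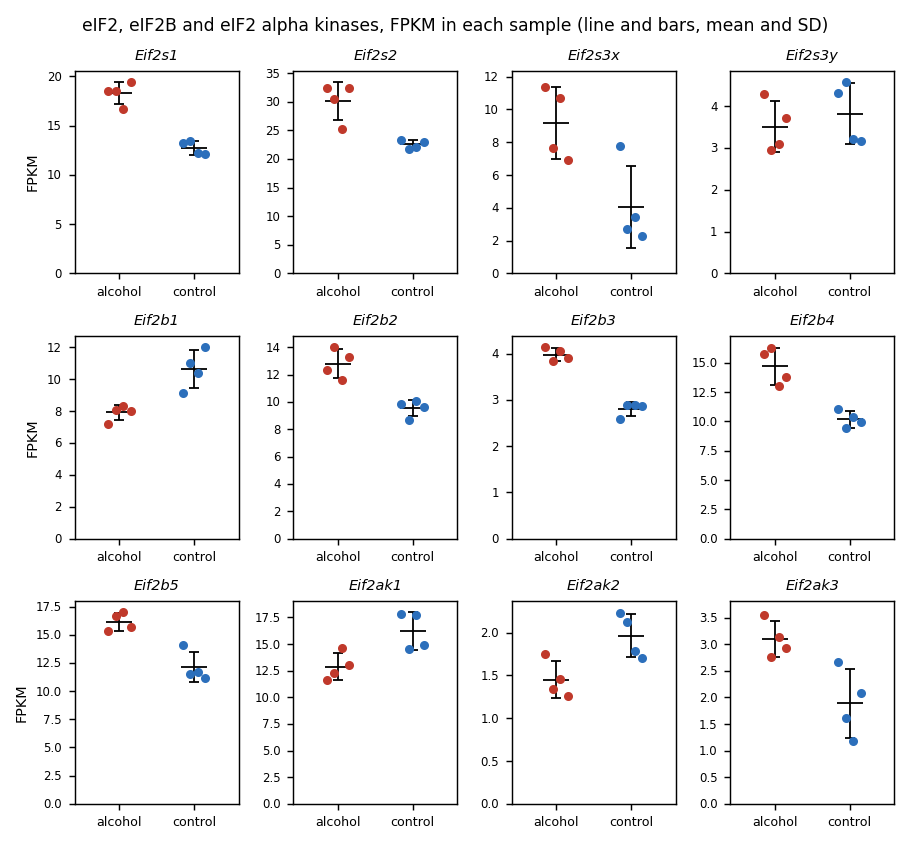
FPKM of the eIF2, eIF2B and tested eIF2 alpha kinase genes in each sample (alcohol left, control right; points are samples, lines and bars the mean and SD of 4). Eif2b1 is the panel in which all alcohol samples lie below the controls, and in the Eif2s3x panel 1 control sample, replicate 1, lies among the alcohol samples.

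The pair of factors that can bring initiator tRNA without eIF2 did not pass the test. Eif2a, which encodes eIF2A and not the alpha subunit of eIF2, had 10.8, 10.5, 10.6 and 10.7 FPKM in alcohol samples, against 12.4, 12.7, 12.6 and 12.0 FPKM in controls. The alcohol samples were all lower and varied little, but the change was small (-0.20 ± 0.08, limma adjusted p = 0.0548). Without control replicate 1 the adjusted p was 0.0490, and over the 8 omissions it ran to 0.120, while median-of-ratios scaling (-0.51) and quantile normalization (-0.45) called it lower. Eif2d averaged 2.74 ± 0.126 FPKM with alcohol and 2.30 ± 0.149 FPKM in controls (SD, n = 4 each). Its groups did not overlap, and the change was 0.18 ± 0.08 (limma adjusted p = 0.0859). It was called higher on the TPM scale (0.33) and by voom on the recovered reads (0.26). With median-of-ratios scaling (-0.06) and quantile normalization (-0.15) it did not pass.

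eIF3 is the largest initiation factor, a scaffold on the small subunit that receives the mRNA. Of its 14 genes 10 rose, none fell and 4 (Eif3e, Eif3h, Eif3k and Eif3m) did not pass, with a median of 0.41. Their summed level was 719.7, 828, 714 and 829 FPKM in alcohol samples, against 592, 594, 587 and 596 FPKM in controls. The controls were almost level with each other, and alcohol replicates 2 and 4 were the higher pair of their group. With median-of-ratios scaling the eIF3 median was 0.08, and 3 genes (Eif3a, Eif3c and Eif3j1) were called higher. With quantile normalization the median was 0.34, and 9 were called higher. On the TPM scale, where 52.7% of all tested genes rose, the median was 0.56 and 13 were called higher, all but Eif3k. Of all tested genes 44.2% rose on FPKM, 23.5% with median-of-ratios scaling and 24.1% with quantile normalization, so the eIF3 share with median-of-ratios scaling was near that of all genes.

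Eif3a, the largest subunit and a core of the complex (chr19:60761117-60790658, minus strand), had 38.0, 27.8, 34.2 and 28.9 FPKM in alcohol samples, against 18.1, 13.8, 14.1 and 14.9 FPKM in controls. There was a wide gap between the groups, and the change was 1.03 ± 0.13 (limma adjusted p = 9.41e-05). Eif3j1 encodes the loosely bound subunit eIF3j. It had 27.6, 28.3, 26.5 and 28.8 FPKM in alcohol samples, against 17.4, 14.7, 13.3 and 13.6 FPKM in controls. Its change was 0.88 ± 0.10 (limma adjusted p = 6.46e-05), with control replicate 1 the highest control and still well under the alcohol samples. Eif3j2 is a near copy, sharing 91.8% of its 50-base words with other genes, so reads of the pair are uncertain one by one. Their sum was 28.0 to 30.6 FPKM in alcohol samples and 13.7 to 18.4 FPKM in controls. Eif3c, a core subunit that contacts eIF1 and eIF5 in yeast, averaged 69.1 ± 4.23 FPKM with alcohol and 39.8 ± 2.77 FPKM in controls (SD, n = 4 each), a change of 0.78.

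The most abundant eIF3 transcript per length, Eif3h, had 97.8, 122, 102 and 126 FPKM in alcohol samples, against 89.5, 105, 106 and 113 FPKM in controls. These groups overlapped (0.11 ± 0.12, limma adjusted p = 0.446), and 26.2% of its 50-base words are shared with other genes. Eif3k, a peripheral subunit, was the nearest to no difference, with 47.0 ± 9.01 FPKM with alcohol and 45.5 ± 5.97 FPKM in controls. The other 8 genes, all but 2 of them called higher, changed by 0.17 to 0.55. Eif3f, at the weak end of those that rose (0.31), was -0.03 with median-of-ratios scaling and was not called without any 1 of 6 samples, while Eif3g (0.43) was not called without alcohol replicate 2, alcohol replicate 4 or control replicate 1. For Eif3d, 43.3% of the exon bases overlap Gm17638 on the other strand, and whether the libraries kept strand is not given in the sources used here. Of the 50-base words, 37.3% of those of Eif3m and 22.0% of those of Eif3e are shared with other genes.

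**Figure D4:**
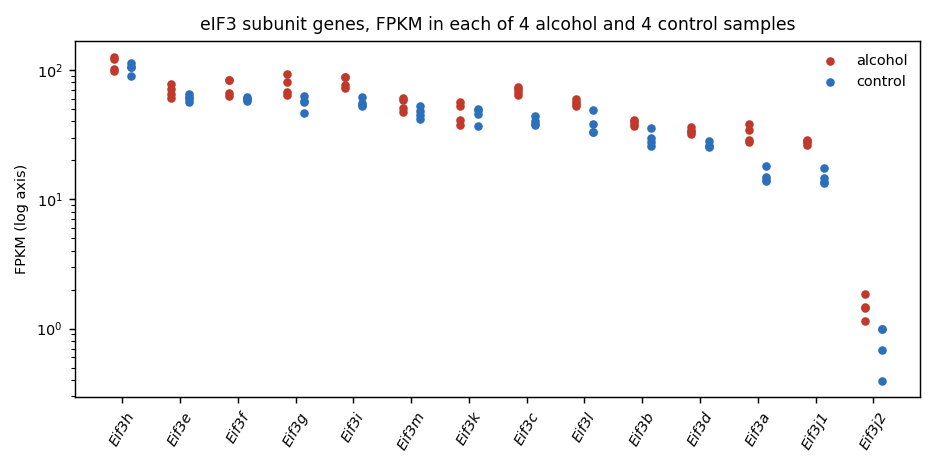
FPKM (log axis) of the 14 eIF3 subunit genes in each of 4 alcohol samples (left of each pair) and 4 control samples (right), ordered by mean level; each point is a sample. The subunits span from about 100 FPKM (Eif3h) to about 1 FPKM (Eif3j2), and the groups are clearly apart for Eif3a, Eif3c and Eif3j1 but overlap for Eif3e, Eif3h, Eif3k and Eif3m.

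The 3 eIF4G scaffold genes rose, with a median of 1.09. Eif4g2 and Eif4g3 were called higher under each scaling (0.76 or more), while Eif4g1 was not. Eif4g3 (eIF4GII, chr4:137993022-138208508, plus strand) had 10.5, 8.01, 8.20 and 7.77 FPKM in alcohol samples, against 3.43, 2.71, 2.61 and 3.12 FPKM in controls. It was 2.91 times as high in the mean with alcohol, with a change of 1.27 ± 0.12 (limma adjusted p = 1.33e-05), and alcohol replicate 1 was the highest sample. Eif4g2 encodes DAP5, a scaffold that lacks the eIF4E-binding site (chr7:111067750-111083030, minus strand). It had 113, 99.9, 106 and 101 FPKM in alcohol samples, against 61.8, 48.4, 44.3 and 42.3 FPKM in controls. Its groups lay far apart (1.09 ± 0.13, limma adjusted p = 6.23e-05).

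Eif4g1, the main scaffold of eIF4F (chr16:20668313-20692884, plus strand), had 79.4, 65.7, 78.8 and 59.6 FPKM in alcohol samples, against 75.5, 44.0, 46.8 and 41.8 FPKM in controls. Control replicate 1 lay among the alcohol samples, and the change was 0.47 ± 0.18 (limma adjusted p = 0.0470). It was 0.14 and did not pass with median-of-ratios scaling (adjusted p = 0.512 by limma), nor did it pass with no filter on low values (0.113). Without that control it was 0.66 with an adjusted p of 0.00155, but without any 1 of 6 other samples (alcohol replicates 1, 2 and 3 and control replicates 2, 3 and 4) the call was lost, with adjusted p up to 0.128. Because the other scaffolds changed more, the mix differed: Eif4g2 per Eif4g1 was 1.42, 1.52, 1.34 and 1.70 in alcohol samples, against 0.819, 1.10, 0.946 and 1.01 in controls. Eif4g3 per Eif4g1 was 0.104 to 0.132 in alcohol samples and 0.0455 to 0.0745 in controls. Neither ratio overlapped between the groups.

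Eif4e, which encodes the cap-binding protein, rose together with most of its partners, whereas Eif4ebp3 fell. Eif4e had 5.38, 4.90, 4.80 and 5.47 FPKM in alcohol samples, against 3.59, 3.05, 3.13 and 3.27 FPKM in controls. The groups did not overlap, and the change was 0.53 ± 0.09 (limma adjusted p = 0.000655), or 0.20 and not passed with quantile normalization. Eif4enif1 encodes 4E-T, which carries eIF4E into the nucleus and into mRNA granules. It had 8.38, 6.31, 7.98 and 7.10 FPKM in alcohol samples, against 4.07, 3.22, 3.56 and 3.41 FPKM in controls. This was the clearest change of the family (0.88 ± 0.11, limma adjusted p = 8.7e-05), with no overlap. Eif4e2, the cap-binding repressor 4EHP, averaged 6.98 ± 0.774 FPKM with alcohol and 5.55 ± 0.252 FPKM in controls (SD, n = 4 each), and its change of 0.28 was -0.01 with median-of-ratios scaling and -0.03 with quantile normalization. Eif4e3, under the minimum and without a limma test, had 0.663, 0.617, 0.619 and 0.578 FPKM in alcohol samples, against 0.784, 0.875, 0.782 and 0.793 FPKM in controls. All alcohol samples were lower there, and the exact 2-sided permutation p of 0.0286 is the smallest that 4 against 4 can give. That p is not adjusted, and every gene whose groups do not overlap has it. Among tested genes 10.7% lay below without overlap and 39.5% above. Eif4e3 lies outside the rule for named genes and was chosen after its values were seen.

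The 3 genes of the 4E-BP repressors, which compete with eIF4G for eIF4E, went different ways. Eif4ebp2 had 29.4, 20.2, 37.0 and 20.0 FPKM in alcohol samples, against 22.9, 6.86, 9.52 and 6.65 FPKM in controls. Control replicate 1 lay within the alcohol range, above alcohol replicates 2 and 4, and the change was 1.27 ± 0.34 (limma adjusted p = 0.00820) and 1.64 without that control. Eif4ebp1, the best known target of mTORC1, had 62.3, 65.4, 58.8 and 71.6 FPKM in alcohol samples, against 48.9, 52.1, 53.5 and 57.4 FPKM in controls. The groups came close without overlapping, and the change of 0.28 ± 0.10 (limma adjusted p = 0.0365) was -0.05 with median-of-ratios scaling. It was not called without alcohol replicate 2, alcohol replicate 4 or control replicates 1, 2 or 3, with adjusted p of 0.0326 to 0.114 over the 8 omissions.

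Eif4ebp3 had 68.8, 28.4, 45.3 and 30.9 FPKM in alcohol samples, against 100.2, 64.6, 89.7 and 63.5 FPKM in controls. Alcohol replicate 1 overlapped the lower controls, and the other alcohol samples were under them all. The change was -0.92 ± 0.26 (limma adjusted p = 0.0115) and was called lower under every one of the 16 alternatives, with values of -1.25 to -0.75 and adjusted p of 0.000278 to 0.0473. On the annotation used here 67.3% of its exon bases lie in AC115631.1 on the same strand, so its reads cannot be told from those of that gene. Summed, the 3 genes stood at 160.5, 114, 141 and 123 FPKM in alcohol samples, against 172, 124, 153 and 128 FPKM in controls. The summed level overlapped widely, while its makeup differed: Eif4ebp3 per Eif4ebp1 was 0.432 to 1.11 in alcohol samples and 1.11 to 2.05 in controls. Eif4ebp1 per Eif4e was 11.6 to 13.3 in alcohol samples and 13.6 to 17.6 in controls, with no overlap. That holds for FPKM: with quantile normalization Eif4ebp1 changed by 0.30 and Eif4e by 0.20. The lengths recovered from the FPKM values were 981 bases for Eif4ebp1, 1786 for Eif4ebp2 and 10231 for Eif4e. Their annotated exon bases were 2196, 5784 and 6008, so the sum and the levels of these ratios hold only for the lengths used.

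**Figure D5:**
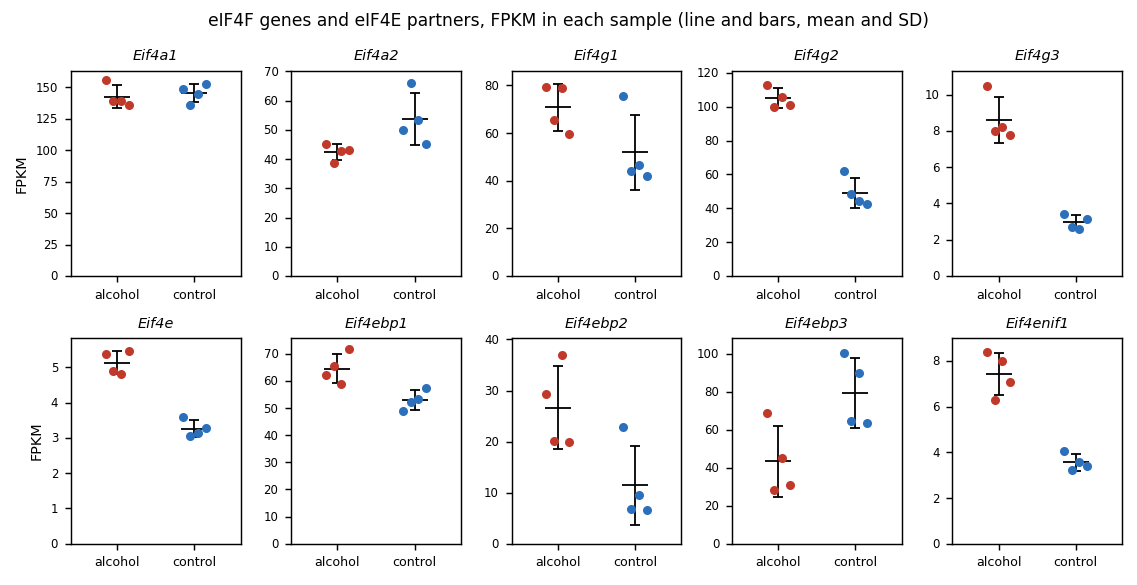
FPKM of the eIF4F genes and of the eIF4E partners in each sample (alcohol left, control right; points are samples, lines and bars the mean and SD of 4). Eif4g2, Eif4g3, Eif4e and Eif4enif1 have no overlap between the groups, Eif4ebp3 is mostly lower and Eif4a1 level with alcohol on FPKM; Eif4a1 was called lower with median-of-ratios scaling.

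None of the 3 eIF4A genes was called higher under any of the 4 scalings. Eif4a1, the helicase that unwinds the mRNA leader and the most abundant eIF4 transcript per length, had 156, 139, 139 and 136 FPKM in alcohol samples, against 149, 136, 145 and 153 FPKM in controls. The groups overlapped, with a change of -0.03 ± 0.10 (limma adjusted p = 0.787), but -0.37 and called lower with median-of-ratios scaling, and 65.3% of its 50-base words are shared with other genes. Eif4a2, its close relative, had 45.1, 38.6, 42.7 and 43.0 FPKM in alcohol samples, against 50.1, 66.2, 53.4 and 45.1 FPKM in controls. Control replicate 2 was the highest, the groups touched at 45.1 FPKM, and the change was -0.32 ± 0.12 (limma adjusted p = 0.0447). That call was lost without any 1 of the 4 alcohol samples or of control replicates 2 and 3 (adjusted p 0.0227 to 0.125 over the 8 omissions) and on the TPM scale (-0.18). It was also lost with the replicate number as a block (limma adjusted p = 0.0527), with no filter on low values (0.0713), by voom on the recovered reads (0.0502) and with alcohol replicates 2 and 4 averaged (0.0908). Eif4a3, the helicase of the exon junction complex, averaged 24.7 ± 0.574 FPKM with alcohol and 25.3 ± 1.95 FPKM in controls (SD, n = 4 each), and with median-of-ratios scaling it was called lower (-0.36). Of its 50-base words 24.4% are shared with other genes.

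Of the helicase's helpers, Eif4h rose on FPKM and Eif4b did not pass. On the TPM scale (0.47) and with quantile normalization (0.35) Eif4b was called higher, and with median-of-ratios scaling it was -0.01. Eif4h had 58.0, 62.9, 54.9 and 55.0 FPKM in alcohol samples, against 52.6, 45.7, 41.0 and 38.3 FPKM in controls. The groups did not overlap (0.38 ± 0.12, limma adjusted p = 0.0171), but without control replicate 3 or 4 the adjusted p was 0.0538 or 0.0504 (from 0.00351 over the 8 omissions), and with median-of-ratios scaling the change was 0.05. Eif4b had 61.9, 67.9, 73.4 and 68.7 FPKM in alcohol samples, against 70.6, 51.6, 51.8 and 45.6 FPKM in controls. Control replicate 1 again sat among the alcohol samples: the change was 0.32 ± 0.14 (limma adjusted p = 0.0633) with it and 0.45 without it, where the adjusted p of 0.00398 was the lowest over the alternatives, which ran to 0.938.

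Eif5, the GTPase activator of eIF2 that acts once the start codon is found, was among the steadiest changes of all members. It had 95.1, 91.6, 92.2 and 91.5 FPKM in alcohol samples, against 53.2, 46.1, 38.0 and 39.6 FPKM in controls (chr12:111538016-111546752, plus strand). The alcohol samples were almost level and far above the controls, with a change of 1.06 ± 0.12 (limma adjusted p = 4.67e-05) and 0.73 or more under each scaling. Eif5a, the hypusine-bearing factor that frees stalled ribosomes, had 185, 230.0, 187 and 215 FPKM in alcohol samples, against 175, 146, 159 and 160.4 FPKM in controls. Its groups came close but did not overlap (0.35 ± 0.11, limma adjusted p = 0.0238), and the change was 0.01 with median-of-ratios scaling. It was not called without alcohol replicate 2 or 4 or control replicate 2 or 3 (adjusted p 0.0153 to 0.0715 over the 8 omissions). Eif5b, the GTPase that joins the ribosomal subunits, averaged 5.50 ± 0.589 FPKM with alcohol and 5.44 ± 0.105 FPKM in controls (SD, n = 4 each). Under median-of-ratios scaling (-0.28) and quantile normalization (-0.30) Eif5b was called lower. Eif5a2, the rarer eIF5A gene, was at 0.0207 to 0.0468 FPKM in alcohol samples and 0.00579 to 0.0470 FPKM in controls.

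Eif6 encodes a factor that keeps the large ribosomal subunit from joining too early and takes part in making it (chr2:155819832-155826925, minus strand). It had 45.9, 51.4, 34.6 and 48.4 FPKM in alcohol samples, against 26.2, 21.6, 24.8 and 20.7 FPKM in controls. Alcohol replicate 3 was the lowest of its group and still above every control, and the change was 0.91 ± 0.14 (limma adjusted p = 0.000299), from 0.59 to 1.07 over the 16 alternatives.

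Of the 10 elongation factor and associated genes tested 9 rose and Eef1d did not pass, while with median-of-ratios scaling 3 (Eef1e1, Eef1akmt1 and Eef1akmt2) were called higher. Of all tested genes 44.2% rose on FPKM and 23.5% with median-of-ratios scaling, the latter near the share of these genes. Eef1a1 and Eef2 were the most abundant of all members per length. Eef1a1, the tRNA carrier, had 2625, 3235, 2857 and 3232 FPKM in alcohol samples, against 2592, 1930.4, 2200.1 and 1885 FPKM in controls. Control replicate 1 nearly reached alcohol replicate 1 (0.48 ± 0.15, limma adjusted p = 0.0215). The call was lost without alcohol replicate 2 or 4 or control replicate 2 or 4 (adjusted p 0.00646 to 0.0676 over the 8 omissions) and with median-of-ratios scaling (0.14), and 59.2% of its 50-base words are shared with other genes. Its tissue-restricted relative Eef1a2, the form of muscle and neurons, was at 0.00675 to 0.0371 FPKM in alcohol samples and 0.00365 to 0.0252 FPKM in controls. Of the exchange subunits, Eef1g had 126, 167, 126 and 145 FPKM in alcohol samples, against 106, 86.1, 91.9 and 89.5 FPKM in controls. Those groups did not overlap (0.58 ± 0.12, limma adjusted p = 0.00242; 0.25 and not passed with median-of-ratios scaling), and 64.3% of its 50-base words are shared.

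Eef1b2, the catalytic exchange subunit beta, averaged 109 ± 22.3 FPKM with alcohol and 67.4 ± 6.73 FPKM in controls, a change of 0.67 with no overlap (0.34 and not passed with median-of-ratios scaling). By contrast Eef1d, which encodes another catalytic subunit, averaged 25.5 ± 4.98 FPKM with alcohol and 28.9 ± 2.91 FPKM in controls (SD, n = 4 each). Its change of -0.19 ± 0.14 did not pass (limma adjusted p = 0.273), and with median-of-ratios scaling it was -0.51 and called lower. Eef1e1, a small protein of the tRNA synthetase complex also called AIMP3, had 21.9, 18.4, 17.3 and 20.8 FPKM in alcohol samples, against 8.80, 9.39, 12.0 and 13.1 FPKM in controls. Control replicate 1 was the lowest of all samples here, and the gene changed by 0.81 ± 0.14 (limma adjusted p = 0.000607) with no overlap. Eef1akmt1, a methyltransferase that modifies a lysine of eEF1A, had 9.95, 11.0, 8.24 and 11.3 FPKM in alcohol samples, against 5.99, 5.36, 4.47 and 4.36 FPKM in controls. The groups lay well apart (0.88 ± 0.13, limma adjusted p = 0.000234). Of the other eEF1A methyltransferase genes, Eef1akmt2 rose by 0.57 (0.26 and not passed with quantile normalization), Eef1akmt4 (0.35) was not called without any 1 of 7 samples, and Eef1akmt3 was at 0 to 0.263 FPKM in alcohol samples and 0 to 0.0325 FPKM in controls.

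Eef2 (chr10:81176631-81182498, plus strand) had 592, 646, 587 and 625 FPKM in alcohol samples, against 536, 329.9, 367 and 330.4 FPKM in controls. Control replicate 1 came close to the alcohol samples while the other controls were far below, and the change was 0.68 ± 0.16 (limma adjusted p = 0.00460), or 0.84 without that control and 0.34, not passed, with median-of-ratios scaling. Eef2kmt, the lysine methyltransferase of eEF2, had 6.01, 6.64, 6.17 and 6.27 FPKM in alcohol samples, against 3.64, 3.91, 4.67 and 4.54 FPKM in controls. The groups did not overlap (0.49 ± 0.10, limma adjusted p = 0.00161). The call was lost with median-of-ratios scaling (0.21; adjusted p = 0.137 by limma) and quantile normalization (0.17; 0.232), and 23.0% of its exon bases overlap genes on the other strand. Eef2k, the kinase that inactivates eEF2, was under the minimum with 1.05, 0.800, 0.885 and 0.785 FPKM in alcohol samples and 1.53, 1.09, 0.926 and 0.734 FPKM in controls. The groups overlapped (exact 2-sided permutation p = 0.400), with control replicate 1 the highest.

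Control replicate 1 recurs in these values: it was the highest control for 29 of the 41 members that rose (70.7%), against 61.3% of the 4080 genes that rose. Without it 38 members were higher and 4 lower. The calls of Eif2ak1, Eif2ak2, Eif3f, Eif3g, Eif4ebp1 and Eef1akmt4 were then lost, and those of Eif2a (lower) and Eif4b (higher) were gained. With alcohol replicates 2 and 4 averaged, 10 calls were lost (Eef1a1, Eef1akmt4, Eif2ak1, Eif2ak2, Eif3f, Eif3g, Eif4a2, Eif4e2, Eif4ebp1 and Eif5a), and with no filter on low values 6 were (Eef1a1, Eef1akmt4, Eif2ak2, Eif3f, Eif4a2 and Eif4g1). Across the members, the change had next to no relation to the recovered gene length (Spearman rho 0.03 over 61 genes), whereas over all 9228 tested genes it had one (rho 0.32); genes within a library are not independent, so no p is given.

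Genes that act on the factors were read from 5 lists, whose counts are those of the FPKM values as deposited, where 44.2% of all tested genes rose and 13.0% fell. The list for eIF2 phosphorylation holds regulators and Atf4, which acts downstream. All 9 of its tested genes rose, with a median of 0.75, and 7 were called higher with median-of-ratios scaling and 8 with quantile normalization. Ppp1r15b (0.26, then -0.06) and Ppp1ca (0.37, then 0.03) did not pass with median-of-ratios scaling. Atf4, the transcription factor whose own translation eIF2 phosphorylation favours, averaged 94.3 ± 15.1 FPKM with alcohol and 35.5 ± 4.46 FPKM in controls (SD, n = 4 each). Dnajc3, an inhibitor of PKR and PERK also called p58IPK, averaged 61.2 ± 4.81 FPKM with alcohol and 30.8 ± 7.97 FPKM in controls. Ppp1cb, a catalytic subunit of protein phosphatase 1, averaged 28.9 ± 0.908 FPKM with alcohol and 15.3 ± 3.08 FPKM in controls.

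Among 18 genes of mTORC1 and 4E-BP control 9 rose and 1 fell (5.56%), a share of risers near the 44.2% of all tested genes; with median-of-ratios scaling 6 were higher and 2 lower. The eIF4E kinase genes Mknk1 and Mknk2 were among the risers: Mknk2 averaged 67.4 ± 4.28 FPKM with alcohol and 30.5 ± 4.87 FPKM in controls, and Mknk1 averaged 8.29 ± 0.732 FPKM with alcohol and 4.18 ± 0.332 FPKM in controls (SD, n = 4 each). The mTORC1 inhibitor Sesn2 averaged 6.27 ± 2.16 FPKM with alcohol and 1.67 ± 0.530 FPKM in controls. The gene that fell, chosen for mention after its value was seen, was Pdcd4, an inhibitor of eIF4A. It had 3.20, 2.60, 2.83 and 2.93 FPKM in alcohol samples, against 5.67, 4.98, 4.66 and 3.52 FPKM in controls, a change of -0.54 ± 0.12 (limma adjusted p = 0.00364) with no overlap and called lower under all 4 scalings. Mtor itself averaged 5.50 ± 0.755 FPKM with alcohol and 4.61 ± 0.803 FPKM in controls and did not pass.

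Of 11 tested genes for poly(A) binding, termination and recycling 6 rose (54.5%, against 44.2% of all tested genes) and none fell, while with median-of-ratios scaling 3 were higher and 3 lower. Etf1, the release factor that reads stop codons, averaged 38.1 ± 2.44 FPKM with alcohol and 15.9 ± 3.37 FPKM in controls (SD, n = 4 each), a change of 1.23. The poly(A)-binding gene Pabpc4 changed by 1.06, and Paip1, which encodes a partner of poly(A)-binding protein and eIF4A, by 0.65. Of 7 tested enzymes that make hypusine on eIF5A and diphthamide on eEF2, 5 rose, the diphthamide genes Dph1, Dph2 and Dph5 by 0.63 to 0.90; with median-of-ratios scaling 3 were higher and 2 lower, and with quantile normalization 2 and 2. Of 10 mitochondrial translation factors, which serve a separate ribosome, 3 rose (Mtif3, Mrrf and Guf1) and Tsfm, the mitochondrial exchange factor, fell by 0.31 on the log2 scale, with a median of 0.21. None of the 10 was called higher with median-of-ratios scaling or quantile normalization, and Tsfm did not pass on the TPM scale.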

How the data were processed

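Gene expression was measured by RNA-seq in 4 alcohol and 4 control samples, grouped by their labels. The deposited values are FPKM, 1 column per sample, all used; the submitters' processing notes name the builds GRCm38 and mm10, with aligner, counter, annotation and strandedness not given in the sources used here. FPKM divides each library by its own total, so changes in abundant transcripts shift all other values. Whole reads and library totals were recovered from the FPKM values (100.00% of the 21049 genes whole in every sample, to 1e-09 of the reads) and used for depth, shares and 1 alternative; of 2 sets of totals that fitted, one 2 times the other, the smaller was taken.

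The 9228 genes averaging 1 FPKM or more were compared on log2(FPKM + 1) by limma (version 3.58.1, R 4.3.3), with a group term, trended moderated variances and 2-sided Benjamini-Hochberg adjusted p-values; log2 changes on this scale understate those of low genes. Single values were compared by exact permutation over 70 assignments. The fit was tested on simulated data. Python 3.11.15 did the rest.

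The members, factor groups, pathway and marker lists were chosen with earlier results of these data known. Values are given per sample for members called with an absolute log2 change of at least 1, the smallest p and highest level of each factor group, and 20 genes set whatever their values; other pathway genes are named by smallest p, up to 3 a list. Alternatives were a pseudocount of 0.1, no filter, 3 scalings, a replicate block and leaving out each sample. Another 2 were chosen after seeing the data: voom in limma on the recovered reads, and alcohol replicates 2 and 4 averaged. Gene positions, overlaps and shared 50-base words come from GENCODE M21 (GRCm38), and promoters from RefSeq (GRCm38.p6), where the ETS pattern was chosen after sequences were seen. A word is shared when another gene's transcript holds it.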

Additional observations from a re-analysis of the deposited data

Results flagged for a closer look

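Among 122 groups of 4 values (61 tested members in the alcohol and the control group), 6 held a sample whose distance to its nearest neighbour took up more of the group's range than Dixon's 95% critical value for 4 samples, which chance passes in about 1 group in 20. Alcohol replicate 1 accounted for 2 of them and control replicate 1 for 4. Eif4a1 was highest in alcohol replicate 1 (156 FPKM, against 136 to 139 FPKM in the other alcohol samples), a gap of 0.870 of the range. Eif4g3 was also highest in alcohol replicate 1 (10.5 FPKM, against 7.77 to 8.20 FPKM), a gap of 0.842. In control replicate 1, Eif4g1 was the highest control (75.5 FPKM, against 41.8 to 46.8 FPKM; gap 0.852), as were Eif3d (28.3 FPKM, against 25.5 to 26.0 FPKM; gap 0.834) and Eif2b5 (14.1 FPKM, against 11.2 to 11.7 FPKM; gap 0.832). Eif2b3 was lowest there, at 2.58 FPKM against 2.86 to 2.90 FPKM in the other controls, a gap of 0.886. Without control replicate 1 the log2 changes were 0.66 for Eif4g1, 0.38 for Eif3d, 0.46 for Eif2b5 and 0.36 for Eif2b3, and all 4 passed the limma test with that sample in and with it left out.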

How the results depend on the processing

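The calls of 34 of the 46 members called by limma held with each sample left out in turn. The count of members higher with alcohol was 41 and ranged from 33 to 40 over these omissions; the count of members lower with alcohol was 5 and ranged from 2 to 5. Scaling had the largest effect of the alternatives run: with median-of-ratios scaling 15 members were higher and 11 lower, with quantile normalization 8 and on the TPM scale 2 were lower, and with alcohol replicates 2 and 4 averaged 2 were lower. For all tested genes higher with alcohol (4080) the count was 2170 with median-of-ratios scaling and 2221 with quantile normalization, and for all tested genes lower with alcohol (1203) it was 2616 and 2307. The sign of the log2 change turned for 13 members with median-of-ratios scaling: Eif1ad (-0.11), Eif1ax (-0.12), Eif1b (-0.20), Eif2d (-0.06), Eif3e (-0.16), Eif3f (-0.03), Eif3h (-0.22), Eif3k (-0.29), Eif3m (-0.13), Eif4b (-0.01), Eif4e2 (-0.01), Eif4ebp1 (-0.05) and Eif5b (-0.28). It turned for 7 with quantile normalization: Eif1ad (-0.08), Eif1ax (-0.12), Eif1b (-0.07), Eif2d (-0.15), Eif4a1 (0.10), Eif4e2 (-0.03) and Eif5b (-0.30). On the TPM scale it turned for Eif2s3y (0.03), Eif4a1 (0.11) and Eif4a3 (0.11), and with alcohol replicates 2 and 4 averaged for Eif3k (-0.04). With single samples left out the changes of Eif3k (-0.06 to 0.14), Eif4a3 (-0.06 to 0.02) and Eif5b (-0.05 to 0.05) lay on both sides of 0. Of the turned values Eif5b passed the test, as lower, with median-of-ratios scaling and quantile normalization, and the others did not pass; the cause was not tested. A pseudocount of 0.1 left all 61 members on their side of the threshold. The other counts, with no filter on low values (37 higher, 5 lower) and by voom on the recovered reads (41 higher, 4 lower; Eif4a2 and Eef1akmt4 lost), were within 1.5 times those reported; the planned count model on those reads was not run.

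With the replicate number as a block 41 members were higher and 4 lower, the call of Eif4a2 being the 1 lost. Same-numbered samples deviated together with correlations of 0.35, 0.22, 0.07 and 0.28, and 2 of the 4 alcohol samples correlated best with the control of their own number, so the numbers were not taken to pair the samples. Of the 6 members under 1 FPKM, Eef1a2, Eef1akmt3 and Eif5a2 had at most 11 reads in any sample. Eef2k had 175 to 374 reads, Eif2ak4 129 to 204 and Eif4e3 147 to 206. Low depth also limits tested members, such as Eef1akmt2 (24 to 97 reads) and Eif3j2 (33 to 167 reads).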
